A study of Mus musculus with 12 samples.

Results

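The genes examined were 4 markers of cholinergic neurons (Chat, Slc18a3, Slc5a7 and Isl1), 3 nicotinic receptor subunits (Chrna4, Chrna7 and Chrnb2) and 3 muscarinic receptors (Chrm1, Chrm2 and Chrm3), 10 of the 24421 genes listed in each library. The rule that chose them lists gene names, of cholinergic neuron markers and acetylcholine receptors, and uses no measured value. Earlier results of these data were known when it was set. RNA of the dorsal raphe (DR), a midbrain nucleus rich in serotonergic neurons that project to the forebrain, was sequenced from 12 mice of both sexes on a C57BL/6 x 129 background, 8 to 16 weeks old when experiments began. The 4 controls (2 female, 2 male) were Sert Cre/+; Stat3 fl/+ littermates of the 8 Sert Cre/+; Stat3 fl/fl animals (4 female, 4 male), called STAT3 KO or KO. Cre was expressed from the gene of the serotonin transporter SERT in every animal, so the deletion was aimed at SERT-expressing cells, and the controls also carried Cre and 1 floxed Stat3 allele. The comparison asks whether loss of STAT3 from serotonergic cells goes with other transcript levels in the surrounding DR tissue.

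Stat3 itself did not separate the genotypes in these counts, which pool deleted and remaining exons and every cell type of the sample. It was read at 66.9, 65.4, 67.0 and 64.4 CPM (reads of a gene scaled to the same total of gene reads in each library) in controls 3, 4, 11 and 13. The 8 KO animals lay between 62.9 and 71.0 CPM with a median of 66.8. By qRT-PCR aimed at the deleted exons, the authors found less Stat3 transcript in DR tissue of KO animals. By staining, they found less STAT3 protein in KO serotonergic neurons. Between 24379588 and 29645210 reads were counted on genes per library. The serotonergic marker list (Tph2, Slc6a4, Fev, Slc22a3, Htr1a and Lmx1b) summed to 924 to 1118 CPM in controls and 773 to 1237 CPM in KO animals, so every library held the labelled tissue's defining transcripts. Libraries also differed in markers of neighbouring tissue. Control 4 held 871 CPM of a forebrain excitatory list against 145.9 to 198 CPM in the other controls, choroid plexus markers were at 240.5 CPM in KO 8 and 238.1 CPM in KO 16 against 16.7 to 23.9 CPM in the other 10 animals, and cerebellar markers were highest in KO 16 (434.5 CPM), KO 10 (219.9 CPM) and control 3 (92.4 CPM). In bulk tissue, fewer cells of a type and less RNA per cell cannot be told apart.

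Acetylcholine is made from choline and acetyl-CoA by choline acetyltransferase, loaded into synaptic vesicles by the vesicular acetylcholine transporter, and broken down outside the cell by acetylcholinesterase, after which choline is taken up again by a high-affinity transporter. It acts on nicotinic receptors, which are pentameric ion channels, and on muscarinic receptors, which couple to G proteins. The DR is reached by cholinergic axons of the mesopontine tegmentum, and cholinergic motor neurons of the oculomotor and trochlear nuclei lie close to it at the midline. Receptor transcripts can come from the neurons that receive these axons, whereas Chat, Slc18a3 and Slc5a7 transcripts come largely from cholinergic cell bodies.

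Chat, which encodes choline acetyltransferase, and Slc18a3, which encodes the vesicular acetylcholine transporter, form 1 locus on chromosome 14 of GRCm38 (mm10). Chat spans 32408203 to 32465989 on the minus strand. Slc18a3 spans 32462438 to 32464850 on the same strand as a single exon that lies within the Chat gene and shares no exon base with it in GENCODE vM21. The start of Slc18a3 lies 1139 bases downstream of the start of Chat. Slc5a7, which encodes the high-affinity choline transporter, lies on chromosome 17 (54273590 to 54299034, minus strand). These 3 genes had the 3 highest correlations over animals among the 10 genes, so the stretches just before their starts are shown. They are 170 bases at chr14:32465990-32466159 for Chat, 191 bases at chr14:32464851-32465041 for Slc18a3 and 250 bases at chr17:54299035-54299284 for Slc5a7. All are on the minus strand, written 5′ to 3′ in lower case from RefSeq promoter windows of GRCm38.p6. Of the 250 bases before each start, those in annotated exons of any gene were left out (80 for Chat, 59 for Slc18a3 and 0 for Slc5a7).
Chat: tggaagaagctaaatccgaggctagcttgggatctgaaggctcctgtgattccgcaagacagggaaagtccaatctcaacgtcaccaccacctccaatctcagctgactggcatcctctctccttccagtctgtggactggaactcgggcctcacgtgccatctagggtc
Slc18a3: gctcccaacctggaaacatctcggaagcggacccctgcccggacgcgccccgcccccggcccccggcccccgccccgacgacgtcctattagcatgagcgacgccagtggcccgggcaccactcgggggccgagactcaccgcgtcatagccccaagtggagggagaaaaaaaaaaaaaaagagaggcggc
Slc5a7: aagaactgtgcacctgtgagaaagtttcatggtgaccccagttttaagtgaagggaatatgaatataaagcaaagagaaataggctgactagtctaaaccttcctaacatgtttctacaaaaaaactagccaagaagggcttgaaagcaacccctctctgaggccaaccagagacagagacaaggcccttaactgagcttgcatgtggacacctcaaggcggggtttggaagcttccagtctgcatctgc
RefSeq windows of 300 bases (250 before to 50 after the start) were found for 9 of the 10 genes, all but Chrm1. The letters of a STAT binding motif, TTCNNNGAA, which is its own reverse complement, were searched in them. They occurred in 0 of the 9 windows and in 2726 of 32851 mouse windows of the same length (8.3%). No base in the stretches above is in capitals because none matched. The absence of these letters describes the windows alone.

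Levels of the 10 genes were ordered as CPM per kilobase of exon sequence, over all 12 animals. Chrna4, an alpha subunit that pairs with the beta-2 subunit in the most common brain nicotinic receptor, had the highest mean level at 17.7 ± 2.34 CPM per kilobase (SD, n = 12). Slc5a7 followed at 15.3 ± 3.91 CPM per kilobase and Chrnb2, the beta-2 subunit, at 12.4 ± 0.444 CPM per kilobase. Slc18a3 was read at 9.50 ± 2.06 CPM per kilobase and Chat at 4.67 ± 1.42 CPM per kilobase. The remaining receptors were lower, with Chrm3 at 4.19 ± 0.583, Chrna7 at 3.05 ± 0.310, Chrm2 at 2.94 ± 0.613 and Chrm1 at 1.66 ± 1.04 CPM per kilobase. Isl1, a transcription factor of motor neurons and some forebrain neurons, was lowest at 0.602 ± 0.145 CPM per kilobase. Neighbours in this order overlapped in every case. Slc18a3 was above Chat, and Chrm3 above Chrna7, in 12 of 12 animals. Chrna4 was above Slc5a7, and Slc5a7 above Chrnb2, in 9 of 12 animals each, Chat above Chrm3 in 8 of 12 and Chrna7 above Chrm2 in 6 of 12. Per kilobase of the longest transcript instead of all exons the order of the means was the same, but Slc5a7 was then above Chrnb2 in 7 of 12 animals, Slc18a3 above Chat in 10, Chat above Chrm3 in 11, Chrna7 above Chrm2 in 12 and Chrm1 above Isl1 in 11 instead of 12, so the order of these neighbours within animals depends on the length used.

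**Figure D1:**
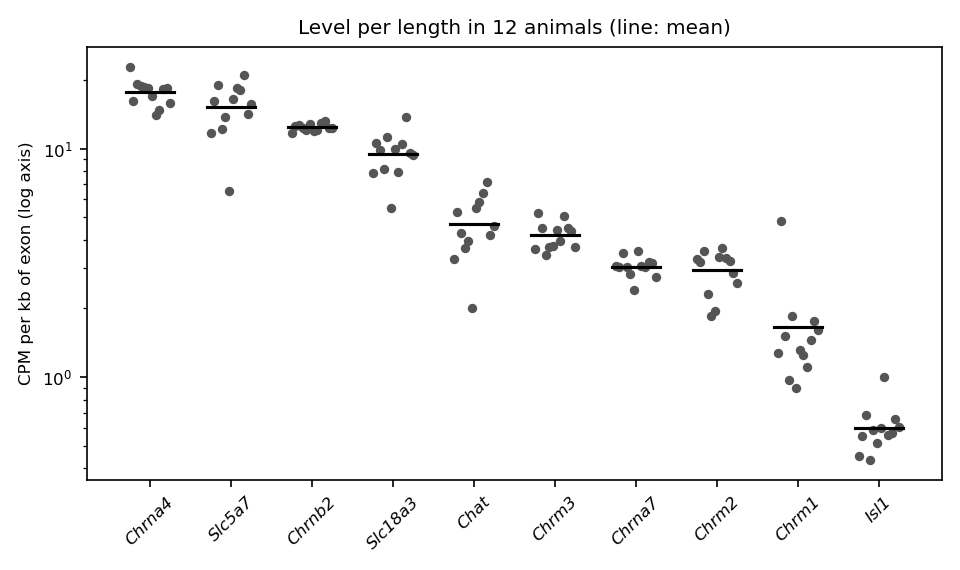
Level of the 10 genes in CPM per kilobase of exon sequence (log axis), with 1 point per animal (12 animals, both genotypes) and a bar at the mean. Chrna4, Slc5a7 and Chrnb2 lie above 10 CPM per kilobase on average, and Isl1 is lowest at 0.602.

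Of the 10 genes, 0 differed between genotypes at an adjusted p below 0.05 in edgeR's quasi-likelihood test, and neither did any of the 15453 genes tested (0% called). At an unadjusted p below 0.05, 1 of the 10 (Chrna4, lower in KO) passed, against 1184 of all genes (7.66%). DESeq2 called 6 of all genes and 0 of the 10, and limma-voom called 0 of all genes and so 0 of the 10. The exact permutation test over animals put 0 of the 10 below 0.05, against 6.87% of all genes. Its smallest possible p with 4 against 8 animals is 0.00202. No gene of the 10 had genotypes that did not overlap, against 0.492% of all genes (0.362% with every KO animal higher and 0.129% with every KO animal lower). The log2 fold change (KO minus control) was above 0 for 4 of the 10 (49.4% of all genes) and below 0 for 6. Its median was -0.017, and over all genes -0.0011.

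**Figure D2:**
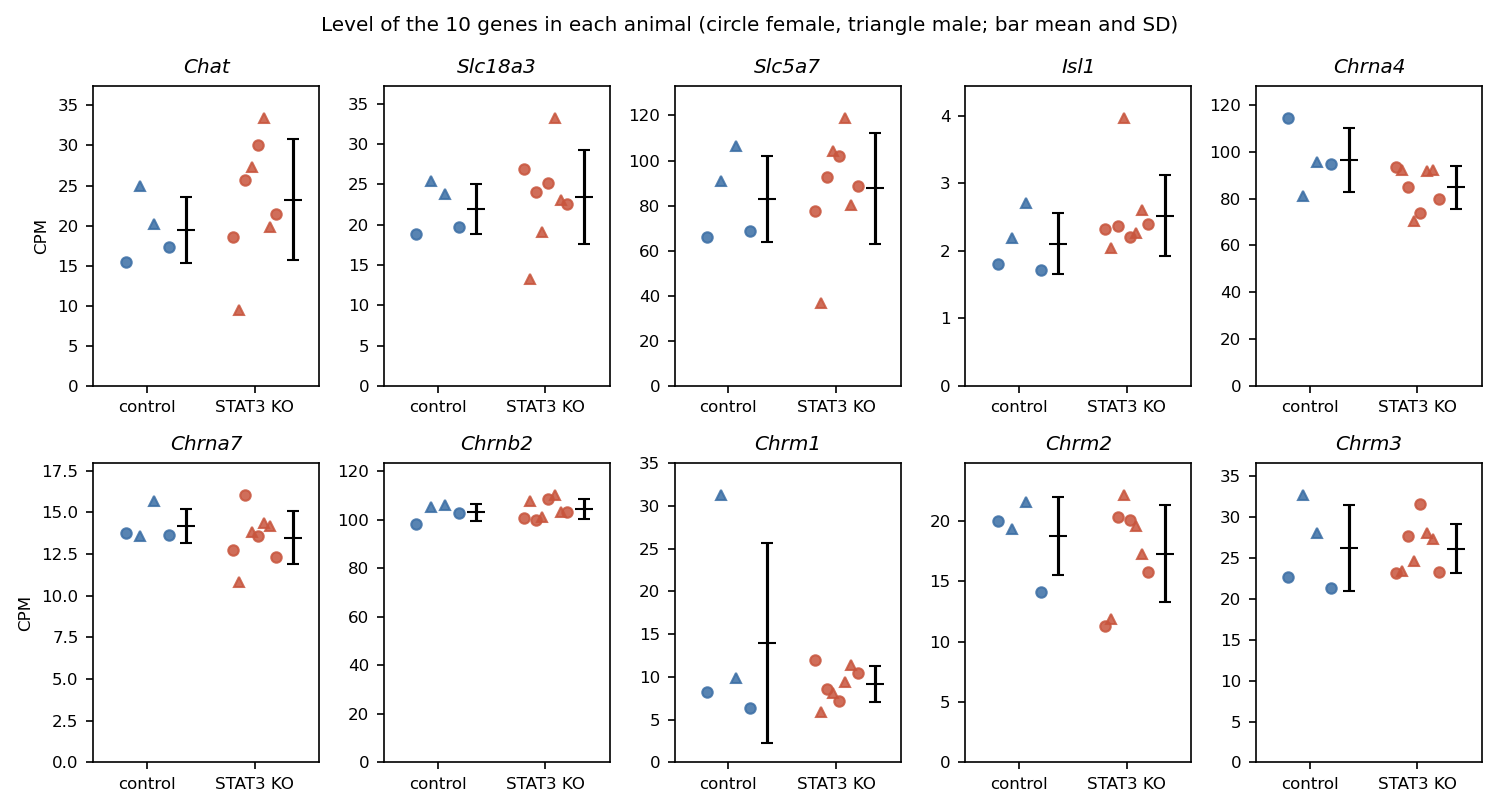
Level of each of the 10 genes in CPM (linear axes from 0), with 1 point per animal (circle female, triangle male; 4 controls in blue, 8 STAT3 KO in red) and a bar for the mean and SD of each genotype. The genotypes overlap for every gene, control 4 stands alone at 31.3 CPM for Chrm1, and 1 KO animal (KO 6) is lowest for Chat, Slc18a3 and Slc5a7.

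The 4 cholinergic markers were not separated by genotype, and what they showed instead was a wide spread between animals. Chat was read at 15.5, 24.9, 20.2 and 17.4 CPM in controls 3, 4, 11 and 13. In the 8 KO animals it ran from 9.43 CPM (KO 6) over a median of 23.6 to 33.4 CPM (KO 14). The controls thus lay wholly inside the KO range, with 4 KO animals above the highest control and 1 below the lowest. Control animals averaged 19.5 ± 4.10 CPM (SD, n = 4) and KO animals 23.2 ± 7.56 CPM (SD, n = 8), a log2 fold change of 0.23 (standard error 0.24, 95% interval -0.28 to 0.74; edgeR adjusted p = 0.885, exact permutation p = 0.61). Leaving out 1 animal moved it between 0.14 (without KO 14) and 0.38 (without control 4). That interval reaches from a decrease to a larger rise, and the spread between animals left these undecided.

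Slc18a3 was read at 18.9, 25.4, 23.8 and 19.7 CPM in controls 3, 4, 11 and 13. KO animals ran from 13.2 CPM (KO 6) over a median of 23.6 to 33.2 CPM (KO 14), so the same 2 KO animals marked both ends as for Chat. Its log2 fold change was 0.07 (standard error 0.17, 95% interval -0.29 to 0.43; edgeR adjusted p = 0.965). Slc5a7 was read at 66.1, 90.7, 106.4 and 68.5 CPM in the same controls. In KO animals it ran from 36.9 CPM (KO 6) over a median of 90.8 to 118.8 CPM (KO 14). Here too the controls lay within the KO range, and the log2 fold change was 0.06 (standard error 0.22, 95% interval -0.41 to 0.52; edgeR adjusted p = 0.981). Between the highest and the lowest animal, Chat differed 3.54-fold, Slc5a7 3.22-fold and Slc18a3 2.51-fold. Without KO 6 the same ranges were 2.16-fold, 1.80-fold and 1.76-fold. The coefficient of variation over the 12 animals was 30.3% for Chat, where counting alone gives 4.05%, and 25.7% for Slc5a7, where counting alone gives 2.05%. For Slc18a3 it was 21.6%, against 3.97% from counting.

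Isl1 was read at 1.80, 2.19, 2.71 and 1.72 CPM in controls 3, 4, 11 and 13. The KO animals ran from 2.04 over a median of 2.35 to 3.96 CPM (KO 8). These levels rest on 42 to 110 reads per library, and counting alone gives a coefficient of variation of 12.3% of the 24.1% seen. The log2 fold change was 0.23 (standard error 0.18; edgeR adjusted p = 0.831). KO 8 stood apart from the other KO animals, and without it the log2 fold change was 0.11, whereas without control 11 it was 0.38.

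The spread of the 3 synthesis and transport genes was set beside markers of the cholinergic groups that the dissected squares could hold. A mesopontine tegmental list (Nos1, Uts2r, Gucy1a3, Gucy1b3, Slc10a4, Gata2 and Gata3, 7 of 7 found) summed to 412 to 564 CPM in controls and 442 to 598 CPM in KO animals. A cranial motor neuron list (12 of 12 found) summed to 156 to 258 CPM in controls and 145.5 to 215 CPM in KO animals, and Ret made up much of that sum, at 175.7 of 258 CPM in control 3, also the control with the most dopaminergic transcripts. Ecel1 had a mean of 33.5 CPM and Prph of 23.7 CPM, whereas Mnx1 had a mean of 0.00916 CPM, under the 0.101 to 0.123 CPM that 3 reads are worth. A forebrain cholinergic list (8 of 8 found) summed to 17.8 to 22.6 CPM in controls and 18.9 to 25.7 CPM in KO animals, with Lhx8, a defining factor of those neurons, at a mean of 0.00604 CPM. None of the 3 lists had a gene at 0 in all libraries. Over the 12 animals, Chat had a Pearson r of 0.568 with the mesopontine score (permutation adjusted p = 0.483 over 120 pairs of gene and list) and of 0.575 with the cranial motor score (permutation adjusted p = 0.483). Neither passed. The cranial motor relation turned sign without the 2 animals farthest from the median score (r = -0.537), and it did so for Slc18a3 as well (r = 0.71 over all animals, -0.281 without those 2). The mesopontine r was 0.51 without its 2 farthest animals, and it was lower for Slc18a3 (0.413) and Slc5a7 (0.362). A noradrenergic list (Dbh and Slc6a2) had as high an r with Chat (0.568, permutation adjusted p = 0.483; 0.608 without its 2 farthest animals) and a higher rho (0.741, permutation adjusted p = 0.23, against 0.678, permutation adjusted p = 0.285, for the mesopontine list). Whether differing amounts of these neurons in the tissue account for the spread was not tested.

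Among the nicotinic subunits, Chrna4 (chromosome 2, 181018380 to 181043546, minus strand) was the nearest to a genotype difference. It was read at 114.4, 81.01, 95.7 and 94.6 CPM in controls 3, 4, 11 and 13. The KO animals ran from 70.4 CPM (KO 8) over a median of 88.3 to 93.5 CPM (KO 5). All 8 KO animals lay below the control mean of 96.4 ± 13.7 CPM (SD, n = 4), but only 3 lay below the lowest control, so the groups overlapped. These 3 were KO 8 (70.4 CPM), KO 10 (73.9 CPM) and KO 16 (79.7 CPM). KO 8 and KO 16 held the most choroid plexus markers, and KO 16 and KO 10 the most cerebellar markers. Chrna4 had r = -0.52 with the choroid plexus score over the 12 animals (permutation adjusted p = 0.657). With the cerebellar score r was -0.20 (permutation adjusted p = 0.962). The KO mean was 84.8 ± 9.16 CPM (SD, n = 8). The log2 fold change was -0.21 (standard error 0.090, 95% interval -0.40 to -0.02), with an unadjusted p of 0.0359 and an adjusted p of 0.633 in edgeR and an exact permutation p of 0.095. Each of 2 controls moved this value. Without control 3, the highest animal, the log2 fold change was -0.11 (edgeR adjusted p = 0.995), and without control 4, the lowest control, it was -0.28 (edgeR adjusted p = 0.339, exact permutation p = 0.0182).

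Dopaminergic markers were also highest in control 3. The list of Th, Slc6a3, Pitx3 and Aldh1a1 (4 of 4 found, none at 0) summed to 256 to 512.5 CPM in controls, with control 3 at the top, and to 239 to 347 CPM in KO animals. Slc6a3, the dopamine transporter, was at 112.2 CPM in control 3 against 18.7 to 47.0 CPM in the other controls and 9.77 to 38.7 CPM in KO animals. Over the 12 animals Chrna4 had r = 0.791 with the dopaminergic score (permutation p = 0.00289, adjusted p = 0.134 over 120 pairs) and Spearman rho = 0.804 (permutation adjusted p = 0.152). Neither passed, and without the 2 animals farthest from the median score r was 0.479 (permutation p = 0.156). Isl1 with the forebrain cholinergic list had r = -0.828 (permutation p = 0.00334, adjusted p = 0.134; -0.429 without its 2 farthest animals). In that list Lhx8, Gbx1 and Nkx2-1 had at most 1, 4 and 5 reads per library, yet weigh as much in the score as the other genes. KO 8 had both the lowest score (-0.316) and the highest Isl1 level (3.96 CPM). Chrm3 with the dopaminergic list had r = -0.717 (permutation p = 0.00753, adjusted p = 0.226; -0.691 without its 2 farthest animals and -0.737 within KO animals). These did not pass either. No genotype difference of Chrna4 was called. Whether dopaminergic neurons, or choroid plexus or cerebellar tissue, bear on its levels was not tested.

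Chrnb2 (chromosome 3, 89746195 to 89764632, minus strand), the partner of Chrna4, was the steadiest of the 10 genes. It was read at 98.3, 105.3, 106.1 and 102.7 CPM in controls 3, 4, 11 and 13 and at 99.9 to 110.3 CPM (median 103.1) in KO animals. Its coefficient of variation was 3.57%, against 1.87% from counting alone. Its log2 fold change was -0.0052 with a 95% interval of -0.09 to 0.08 (edgeR adjusted p = 0.993), so the data leave room only for a small difference. Of its exon bases, 16.3% are shared with Adar on the opposite strand, and reads of the genes cannot be told apart there unless strand was used. The ratio of Chrna4 to Chrnb2 in CPM was 0.769 to 1.16 in controls and 0.68 to 0.927 in KO animals, and the levels of the pair did not go together over animals (r = -0.129, permutation p = 0.693).

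Chrna7 (chromosome 7, 63098692 to 63212569, minus strand), which forms the homomeric alpha-7 receptor with high calcium permeability, was read at 13.8, 13.6, 15.7 and 13.7 CPM in controls 3, 4, 11 and 13. KO levels ran from 10.8 CPM (KO 6) over a median of 13.7 to 16.1 CPM (KO 7). The control range lay inside that of the KO animals. Its log2 fold change was -0.09 (standard error 0.089, 95% interval -0.28 to 0.10; edgeR adjusted p = 0.87), and it ran from -0.13 without KO 7 to -0.0375 without control 11.

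The muscarinic receptors were likewise not separated. Chrm1 (chromosome 19, 8663789 to 8683587, plus strand), a Gq-coupled receptor abundant in cortex and hippocampus, was read at 8.28, 31.3, 9.88 and 6.32 CPM in controls 3, 4, 11 and 13. The KO animals ran from 5.86 CPM (KO 6) over a median of 9.004 to 12.02 CPM (KO 5). Control 4 therefore stood alone above every other animal, the next of which was KO 5, and the other 11 animals overlapped. Over all animals the log2 fold change was -0.64 (standard error 0.33, 95% interval -1.33 to 0.06; edgeR adjusted p = 0.681, exact permutation p = 0.418). Without control 4 it was 0.14 (edgeR adjusted p = 0.89), so the direction rests on that library.

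Control 4 was also the animal with the most forebrain transcripts. The forebrain excitatory list (Tbr1, Neurod6, Slc17a7, Emx1, Ddn, Camk2a, Nrgn and Fezf2, 8 of 8 found, none at 0 in all libraries) summed to 145.9, 871, 198 and 198 CPM in controls 3, 4, 11 and 13 and to 181 to 296 CPM in KO animals. Chrm1 and the score of this list were related over the 12 animals (r = 0.921, permutation p = 0.00025, adjusted p = 0.03), the only one of 120 pairs to pass. Spearman's rho was 0.706 (permutation p = 0.0127, adjusted p = 0.26). Without control 4 and KO 15, which had the 2 scores farthest from the median, r was 0.659 (permutation p = 0.0396). Without control 4 alone r was 0.722 (permutation adjusted p = 0.445), and the call was lost in 5 of the 12 sets that left out 1 animal. Within the KO animals r was 0.771 (exact permutation p = 0.0313, n = 8), and KO 5, 15 and 16 were the 3 highest in both measures.

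Chrm2 (chromosome 6, 36388084 to 36528414, plus strand), a Gi-coupled receptor that also acts as an autoreceptor on cholinergic neurons, was read at 19.98, 19.3, 21.6 and 14.1 CPM in controls 3, 4, 11 and 13. The KO animals ran from 11.3 CPM (KO 5) over a median of 18.4 to 22.2 CPM (KO 8). KO 5 and KO 6 lay below every control, and KO 8 lay above. Its log2 fold change was -0.14 (standard error 0.17, 95% interval -0.50 to 0.22; edgeR adjusted p = 0.905), and it ran from -0.25 without control 13 to -0.0622 without control 11. Chrm3 (chromosome 13, 9875486 to 10360847, minus strand), a Gq-coupled receptor, was read at 22.7, 32.8, 28.1 and 21.4 CPM in controls 3, 4, 11 and 13. The KO animals, from 23.2 over a median of 26.0 to 31.7 CPM, lay wholly within the control range. Its log2 fold change was -0.03 (standard error 0.11, 95% interval -0.26 to 0.21; edgeR adjusted p = 0.981).

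**Figure D3:**
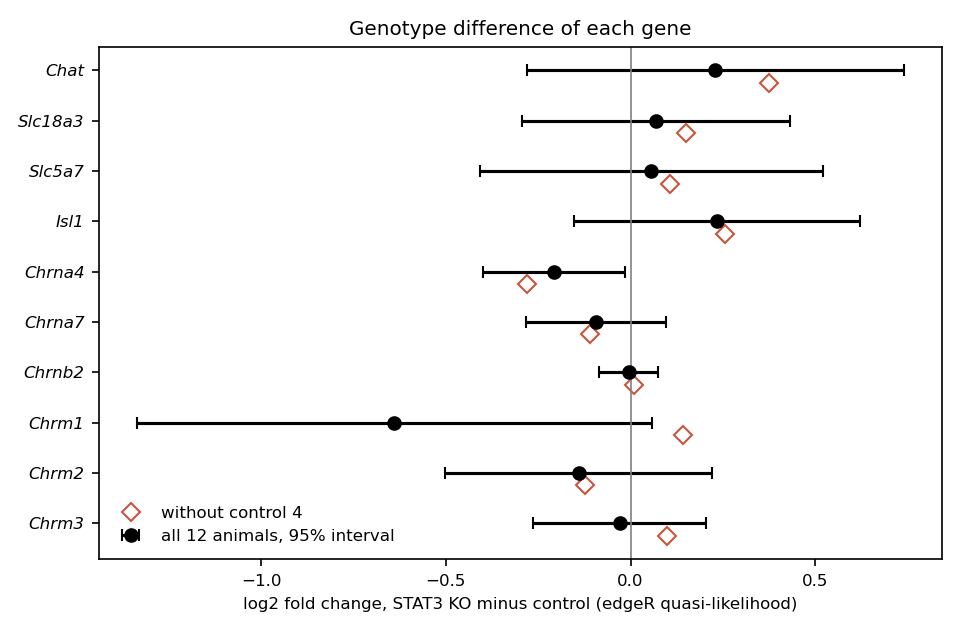
Log2 fold change (STAT3 KO minus control) of the 10 genes from edgeR's quasi-likelihood fit, with 95% intervals; a value of 0 means no difference. The interval of Chrna4 (-0.40 to -0.02) is the one that leaves 0 out, and that of Chrm1 is the widest; no gene passed at an adjusted p below 0.05.

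The other genes of the acetylcholine pathway were taken from a list of 29 genes, of which 23 had enough reads to be tested. Of these 23, 0 passed at an adjusted p below 0.05 in edgeR. At an unadjusted p below 0.05, 1 was higher in KO (3.61% of all genes were) and 2 were lower (4.05% of all genes were). The 3 were modulators or chaperones of nicotinic receptors. Lynx1, which encodes a GPI-anchored protein that binds nicotinic receptors and dampens them, was read at 485, 436, 458 and 459 CPM in controls 3, 4, 11 and 13 and at 398 to 458 CPM (median 437) in KO animals. Its log2 fold change was -0.11 (standard error 0.045; edgeR unadjusted p = 0.0322, adjusted p = 0.625). Tmem35, which encodes the chaperone NACHO needed for assembly of alpha-7 receptors, was read at 77.7, 68.2, 76.2 and 78.9 CPM in the same controls and at 64.4 to 73.9 CPM (median 71.3) in KO animals. Control 4 lay inside the KO range and the other 3 controls lay above it. For Tmem35 the log2 fold change was -0.11 (standard error 0.047; edgeR unadjusted p = 0.026, adjusted p = 0.616). Lypd6, another Ly6 protein, was at 21.2 to 32.9 CPM in controls and 26.2 to 43.0 CPM in KO animals, a log2 fold change of 0.28 (standard error 0.13; edgeR unadjusted p = 0.0467, adjusted p = 0.647). The exact permutation test put 2 of the 23 below 0.05 (6.87% of all genes were), Tmem35 (p = 0.0343) and Lynx1 (p = 0.0424). Lypd6 was above it (exact permutation p = 0.095). None of the 23 had genotypes that did not overlap.

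In reads not scaled for gene length, the highest pathway genes were Lynx1 (mean 443 CPM), Ache (264 CPM) and Ly6h (138 CPM). Ache, which encodes acetylcholinesterase, averaged 261 CPM in the 4 controls (SD 5.04) and 265 CPM in the 8 KO animals (SD 25.1), and its log2 fold change was -0.0024 (standard error 0.065). Ly6h, a Ly6 protein that lowers alpha-7 currents, was at 129 ± 17.7 CPM (SD, n = 4) and 142.5 ± 8.78 CPM (SD, n = 8), with a log2 fold change of 0.12 (edgeR adjusted p = 0.741). Of the 7 other nicotinic subunits tested, 2 had a log2 fold change above 0 and 5 below 0. Chrna6 and Chrnb3, subunits found in dopaminergic neurons, were both highest in control 3, the control with the most dopaminergic transcripts, at 21.2 and 13.9 CPM. The other controls lay at 7.07 to 13.1 CPM for Chrna6 and 6.10 to 10.2 CPM for Chrnb3, with control 4 below every KO animal, and the KO animals at 7.67 to 12.4 and 6.29 to 10.1 CPM. The 6 subunits that were not tested included Chrna9 and Chrna10 of the inner ear and Chrnd, Chrng and Chrne of muscle. Chrna9 had a mean of 0.0239 CPM and Chrnd of 0.00288 CPM, both below the level of 3 reads.

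Both sexes were present in each genotype. Between females and males, with genotype in the fit, 0 of the 10 genes passed at an adjusted p below 0.05 in edgeR, against 13 of all genes (0.0841%), and 0 passed at an unadjusted p below 0.05 (7.2% of all genes). DESeq2 called 24 of all genes. Isl1 was nearest, at 2.14 ± 0.298 CPM in females and 2.63 ± 0.702 CPM in males (SD, n = 6 each), with a log2 difference (female minus male) of -0.31 (standard error 0.16; edgeR adjusted p = 0.72), which was -0.16 without KO 8. The test of whether the genotype difference itself differed between sexes passed for 0 of the 10 genes at an adjusted p below 0.05 in edgeR (0% of all genes), and DESeq2 called 2 of all genes and 0 of the 10. At an unadjusted p below 0.05 it passed for 2 of the 10, Chrm1 and Chrm3, against 848 of all genes (5.49%). Chrm3 was at 22.7 and 21.4 CPM in the 2 control females and at 23.2 to 31.7 CPM in the 4 KO females. It was at 32.8 and 28.1 CPM in the 2 control males and at 23.4 to 28.1 CPM in the 4 KO males. All KO females thus lay above the control females, and the KO males below the mean of the control males. The interaction was 0.49 on the log2 scale (standard error 0.18; edgeR unadjusted p = 0.0165, adjusted p = 0.907). Without control 4, the highest animal for Chrm3, it was 0.37, with control 11 then the lone control male. For Chrm1 it was 1.62 (standard error 0.52; edgeR adjusted p = 0.898), and without control 4, which is male, it was 0.56.

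Across animals, the strongest relation among the 10 genes joined synthesis and choline uptake. Of the 45 pairs, 35 had a positive Pearson r and 4 passed at an adjusted permutation p below 0.05. Chat and Slc5a7 had r = 0.941 (permutation p = 2e-05, adjusted p = 0.0009) and rho = 0.888 (permutation adjusted p = 0.0117), the only pair to pass by rank. Without KO 6 and KO 14, the animals farthest from the median of Chat, r was 0.818 (permutation p = 0.00541, adjusted p = 0.0908), so the call was lost in that set of 10 animals. Within the KO animals it was 0.985 (exact permutation p = 4.96e-05, n = 8), and leaving out any 1 animal it stayed between 0.869 and 0.983 with an adjusted permutation p of at most 0.0373. The ratio of Slc5a7 to Chat reads, which is not scaled for length and serves only to compare animals, was 3.39 to 4.18 in the KO animals. In controls it was 3.64 to 5.28, with control 11 highest.

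The vesicular transporter followed the pair less closely. Chat and Slc18a3 had r = 0.806 (permutation p = 0.00313, adjusted p = 0.0469), with rho = 0.545 (permutation adjusted p = 0.29). Slc18a3 and Slc5a7 had r = 0.822 (permutation p = 0.0024, adjusted p = 0.0469), with rho = 0.504 (permutation adjusted p = 0.334). Without KO 6 and KO 14, r was 0.322 for the first pair and 0.339 for the second. Without KO 6 alone they were 0.577 and 0.569, and for each pair the call was lost in 10 of the 12 sets that left out 1 animal. Without KO 8, in contrast, they were 0.909 and 0.918 (permutation adjusted p = 0.00615 for both). KO 8 was the animal farthest from the common line, with a Slc18a3 to Chat ratio of 0.70 against 1.02 to 1.22 in controls, and KO 5 had the highest ratio at 1.45. Chat and Slc18a3, although they share a locus, were thus less closely related in these animals than Chat and Slc5a7, which lie on different chromosomes; the difference between these correlations was not tested. Isl1 passed with none of the 3 (r = 0.415 with Chat, 0.491 with Slc5a7 and 0.100 with Slc18a3; permutation p = 0.171, 0.114 and 0.73).

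**Figure D4:**
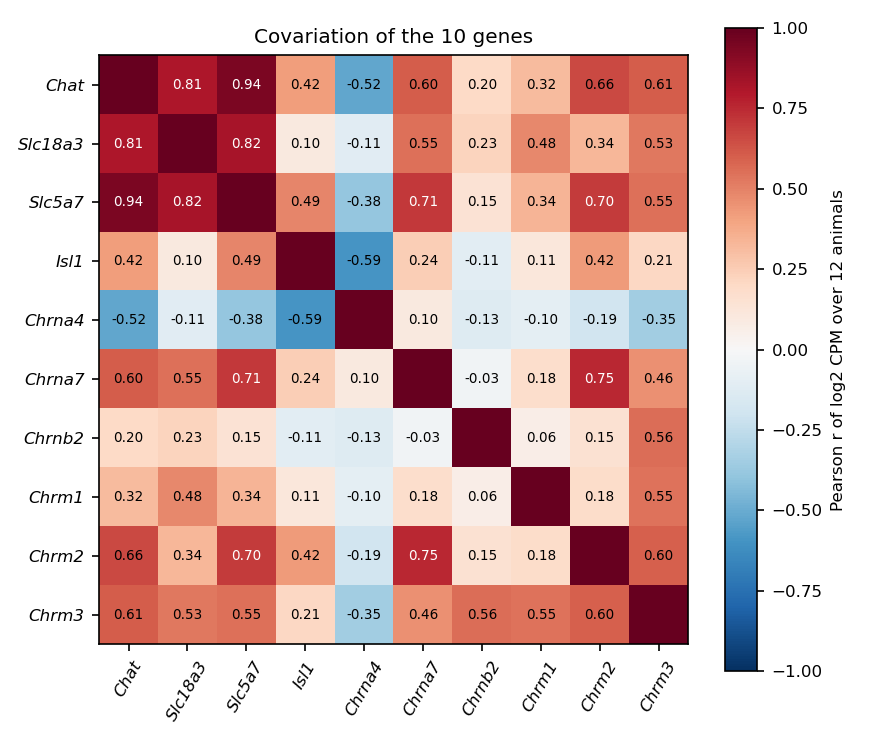
Pearson r of log2 CPM over the 12 animals for every pair of the 10 genes (red positive, blue negative). Chat and Slc5a7 stand out at 0.94, Slc18a3 follows with both, and Chrna4 has mostly negative values.

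Among receptors, Chrna7 and Chrm2 passed with r = 0.753 (permutation p = 0.00429, adjusted p = 0.0483), rho = 0.706 (permutation adjusted p = 0.215) and r = 0.657 without the 2 animals farthest from the median. Leaving out any 1 animal kept r between 0.64 and 0.786, but the adjusted p was above 0.05 in 11 of the 12 such sets. Chrna4 had negative r with all 4 cholinergic markers, and none of the 4 passed over the 12 animals. With Chat r was -0.523 (permutation p = 0.0826, adjusted p = 0.219) and rho -0.629 (permutation adjusted p = 0.228). Without KO 6 and KO 14 this r was -0.884 (permutation p = 0.00082, adjusted p = 0.0369), the only pair of the 45 that passed when each pair was computed without its 2 farthest animals. With Isl1 r was -0.589 (permutation adjusted p = 0.191), with Slc5a7 -0.383 (permutation adjusted p = 0.407) and with Slc18a3 -0.11 (permutation adjusted p = 0.797). Chrna4 and the mesopontine list had r = -0.686 (permutation adjusted p = 0.331; -0.226 without the 2 farthest animals and -0.194 within KO animals), and Chat and the dopaminergic list r = -0.622 (permutation adjusted p = 0.479; rho = -0.832, permutation adjusted p = 0.152).

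**Figure D5:**
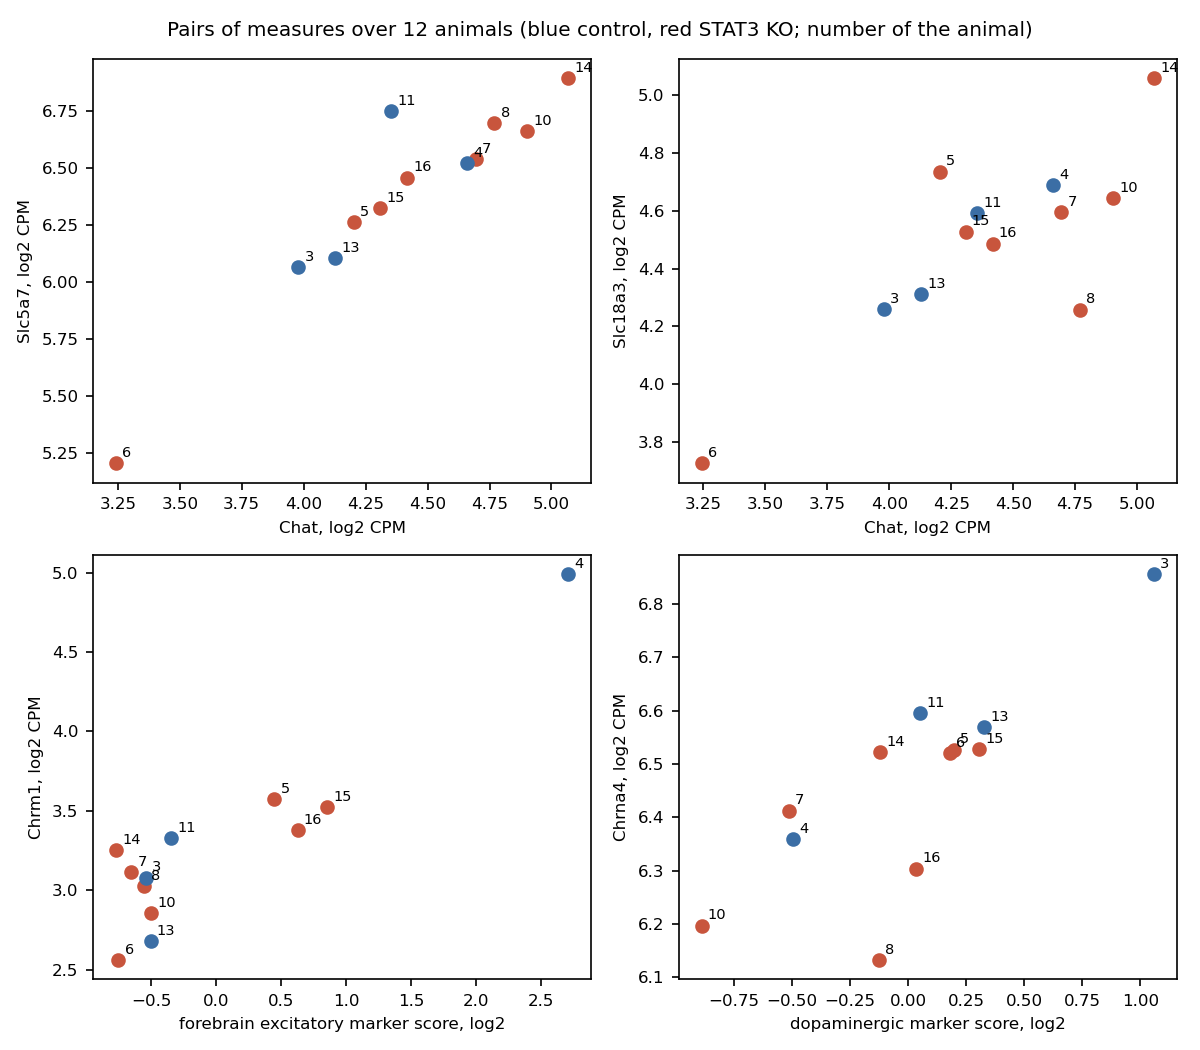
Pairs of measures over the 12 animals, with 1 numbered point per animal (blue control, red STAT3 KO): Slc5a7 and Slc18a3 against Chat, Chrm1 against the forebrain excitatory score and Chrna4 against the dopaminergic score (all log2; a score is the mean over its genes of log2 CPM centred on each gene's mean). KO 6 lies far below the rest in both Chat panels, control 4 far right for Chrm1 and control 3 far right for Chrna4.

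The genes whose pattern over the 12 animals was most like that of Chat, after each genotype was centred on its own mean, were looked up among 15452 genes and are given as a description. Acly, which encodes the ATP-citrate lyase that makes cytosolic acetyl-CoA, the other substrate of choline acetyltransferase, was first with r = 0.968 (0.912 without the 2 animals farthest from the median of Chat) at a mean of 473 CPM. Slc5a7 was second at 0.952 (0.816 without those 2). Acaca, the acetyl-CoA carboxylase that starts fatty acid synthesis, had r = 0.943, and Gad2, which encodes a GABA-synthesising enzyme, 0.916. Bche, which encodes butyrylcholinesterase, a second enzyme that splits choline esters, had r = 0.904. The other 5 of the first 10 were Smpdl3b (0.951), Frem3 (0.908), Tmem209 (0.905), Tmc3 (0.904) and Lhcgr (0.902), of which all but Tmem209 had means of at most 1.57 CPM. Without the same 2 animals the 10 values lay between 0.667 (Frem3) and 0.912 (Acly). Slc18a3 ranked 65 at 0.809, and at 0.266 without those 2. For Chrm1 the 5 most alike were Nov (0.951), Mef2c (0.943), Camk2a (0.924), Rtn4rl2 (0.923) and Ddn (0.923). Camk2a, a kinase of excitatory synapses, and Ddn, a postsynaptic protein of forebrain dendrites, are members of the forebrain excitatory list, and Camk2a was at 470 CPM in control 4 against 99.6 to 189.5 CPM in the other 11 animals.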

How the data were processed

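RNA of 12 DR samples (1 library per animal, from squares below the aqueduct of coronal sections, 4 control and 8 STAT3 KO mice) was sequenced as 75-base single reads. The raw gene counts used here were deposited by the authors, who mapped reads to mm10 with STAR 2.5.0b, per the labels; their processing notes also name DESeq2 1.6.3. The read counter, its annotation and its strand setting are not given in the sources used here. Per library 84.2% to 86.1% of entries fell on genes, and rows naming no gene (no feature, 13.4% to 15.3%; ambiguous, 0.507% to 0.562%) stayed out of library sizes and tests. Groups came from the genotype labels; separate animals were the replicates, although the labels name no litter or batch.

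CPM was each count divided by the library's gene counts. Tests used edgeR 4.0.16 (R 4.3.3): TMM, filterByExpr by genotype (minimum count 10, 15453 of 24421 genes kept), a two-sided quasi-likelihood test with no covariate, and Benjamini-Hochberg adjustment over all genes tested. Mean log2 CPM (prior count 2) of single genes was also compared by exact permutation (two-sided, 495 splits of the animals). Correlations over animals had permutation p-values (100000 resamples; exact for n = 8), adjusted over 45 pairs of genes and 120 pairs of gene and marker list. Coordinates and exon lengths came from GENCODE vM21. Scripts were tested on simulated data. DESeq2 1.42.0, limma-voom (limma 3.58.1), other size factors, filters, sex as a covariate and leaving out each animal were tried.

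The 10 genes, the pathway list and the marker lists were chosen with earlier results of these data known. Pathway genes were named if their unadjusted p was below 0.05, if they were among the 3 with the highest mean CPM or if genotypes did not overlap; likeness named the first 10 genes for Chat and the first 5 for Chrm1. A marker gene of the forebrain excitatory list is not reported here; it was left out of that list's sums, scores and correlations for a reason unrelated to its values. Chrna6, Chrnb3, Chrna9 and Chrnd, and the genes of marker lists given alone, were named after their values were seen.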

Additional observations from a re-analysis of the deposited data

Results flagged for a closer look

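In groups of 4 to 10 animals, an animal was marked where its gap to the nearest of the others, divided by the range of the group, passed Dixon's critical value. Of 44 groups of values examined 5 were marked, where chance marks about 1 in 20, or 2.2 of them. KO 6 was marked as low for Chat (gap 0.526 of the range, at the critical value of 0.526) and for Slc5a7 (0.625), the pair whose relation over animals was the closest. KO 8 was marked as high for Isl1 (0.632) and control 11 for Chrna7 (0.884), where the other 3 controls lay within 13.6 to 13.8 CPM. Control 4 was marked as high for the forebrain excitatory score (0.94), with a score of 2.71 against -0.54 to -0.35 in the other controls. Chrm3 was marked because every KO female lay above the mean of the control females and every KO male below that of the control males. Its interaction was 0.49 on the log2 scale (edgeR unadjusted p = 0.0165, adjusted p = 0.907), and 0.37 without control 4. No explanation of these values was tested.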

How the results depend on the processing

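With DESeq2 the genes called were 6 for genotype, 24 for sex (13 in edgeR) and 2 for the interaction; leaving out control 4, KO 8 and KO 16 together, chosen after seeing the data, gave 2 for genotype. Leaving out each animal gave 0 to 1 (1 without control 4), 10 to 13 and 0 to 37 genes (37 without control 11), and 0 to 1 of the 10 genes for the interaction (Chrm1 without control 11, log2 2.21, adjusted p = 0.0342). In that set control 4 is the lone control male and is assumed to vary like the other groups, so neither this call nor the 37 genes has a replicate in that arm. No setting called any of the 10 for genotype or sex at an adjusted p; the exact permutation p of Chrna4, unadjusted, was 0.0182 without control 4 and 0.095 over all animals. Pairs of genes that passed numbered 4, against 7 after centring by genotype, 1 within KO animals, 1 without the 2 animals farthest from the median (Chat with Chrna4, r = -0.884, which was not among the 4; Chat with Slc5a7 had an adjusted p of 0.0908) and 1 to 4 with 1 animal left out (4 only without KO 5 or KO 8). Pairs of gene and list numbered 1, against 0 within KO animals, 0 without the 2 farthest animals and 0 to 2 with 1 animal left out (0 without control 4, control 11, KO 5, KO 15 or KO 16; 2 without KO 6 or KO 8).

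None of the values that turned sign was past a threshold. The genotype log2 fold change became 0.0011 (Chrnb2) and 0.048 (Chrm3) with limma-voom, and 0.0196 (Chrnb2), 0.14 (Chrm1) and 0.14 (Chrm3) without the 3 animals together. The permutation p of Chrnb2 was 0.60 on mean CPM, with the sign turned. With 1 animal left out the genotype log2 fold change ran from -0.0207 to 0.16 for Slc18a3, -0.0337 to 0.20 for Slc5a7, -0.0227 to 0.0129 for Chrnb2, -0.88 to 0.14 for Chrm1 and -0.11 to 0.10 for Chrm3. The exact permutation p then ran from 0.336 to 0.976, 0.291 to 0.997, 0.588 to 1, 0.152 to 0.603 and 0.40 to 1 for these 5 genes. The sex difference ran from -0.27 to 0.05 for Chat, -0.15 to 0.13 for Slc18a3, -0.0295 to 0.0756 for Chrna4 and -0.0737 to 0.0278 for Chrna7, and the interaction of Chrm2 from -0.0457 to 0.47.

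No paired analysis was possible because the genotypes share no replicate number. Counting alone gave the largest coefficient of variation for Isl1 (12.3%). The spread over animals was 1.92 to 1.98 times that of counting for Chrnb2, Isl1 and Chrna7, and 3.75 times or more for the other 7 genes.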
